A study of Mus musculus with 8 samples.

Results

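The sestrins Sesn1, Sesn2 and Sesn3, the metabolic phosphatase Tigar, the superoxide dismutases Sod1 and Sod2, catalase (Cat) and glutathione peroxidase 1 (Gpx1) were followed in mouse fibroblast lines with and without p53. They were chosen by name, as rows whose RefSeq transcript carries a current or former symbol of 1 of these genes. All 8 were found, each with 1 probe set and 1 profile of values, among 15653 named genes and 22523 transcript rows. Expression was measured on 8 Affymetrix mouse arrays, 1 per culture, and values are RMA levels on the log2 scale.

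The study compared lines that differ in how their cells renew themselves: in asymmetric self-renewal a dividing cell yields a further dividing cell and an arrested one, and in symmetric self-renewal both keep dividing. The ASYM state is Ind-8, a clone of p53-null mouse fetal fibroblasts that holds a wild-type mouse p53 cDNA behind a modified human metallothionein promoter, which zinc switches on (3 arrays). The SYM state is Con-3, a p53-null line that the methods name a vector control and the sample labels name the parent of Ind-8 (3 arrays). The p53SYM state is tI-3, derived from Ind-8, with an added and constantly expressed IMPDH II cDNA beside the inducible p53 (2 arrays). All cultures had 65 µM ZnCl2 for 48 h and 5 µg/ml puromycin. Medium of tI-3 alone also held G418, for which the methods and the labels give different doses. Only cultures that met a criterion of growth were taken for RNA. Each state is 1 line, so state, clone and, for p53SYM, G418 cannot be told apart. Arrays within a line were labelled as biological replicates, and their small number limits the precision. As these are bulk samples, fewer cells of a kind and less RNA per cell cannot be told apart either.

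Sestrins are stress-induced proteins that restrain the growth kinase complex mTORC1, in part by binding GATOR2, and that help to keep peroxides low. TIGAR removes a phosphate from fructose-2,6-bisphosphate, which slows glycolysis and favours the pentose phosphate pathway and its NADPH. Superoxide dismutases turn superoxide into hydrogen peroxide, which catalase and glutathione peroxidases then break down. Several of these genes are known targets of p53.

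The labels were checked with 8 p53 target genes, shown in the plot of p53 targets by array. The study itself reports Cdkn1a, Mdm2, Ccng1, Trp53inp1 and Eda2r as higher in ASYM than in both other states on these arrays. For these genes the check of ASYM against the other states is therefore not independent. All 8 were higher in ASYM than in SYM and than in p53SYM, and higher in p53SYM than in SYM, at a p under 0.05 from limma, adjusted by the Benjamini-Hochberg method across the 22523 probe sets. Cdkn1a, which encodes the cell cycle inhibitor p21, measured 9.70, 9.70 and 9.59 in ASYM, 7.55 and 7.33 in p53SYM and 5.73, 5.81 and 6.03 in SYM. By the rank product test 8, 6 and 4 of the 8 were higher in these comparisons, and 8, 6 and 8 with the hybridization controls as a covariate in limma. The median difference of the 8 genes was 2.46 for ASYM minus SYM, 1.26 for ASYM minus p53SYM and 1.10 for p53SYM minus SYM. The smallest of the ASYM to SYM differences was that of Bax, which encodes an apoptosis effector, at 1.12 (limma adjusted p = 3.1e-05). In ASYM against SYM, Mdm2, Ccng1, Trp53inp1, Phlda3, Eda2r and Zmat3 differed by 2.00, 2.91, 3.65, 1.73, 3.73 and 1.67.

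**Figure D1:**
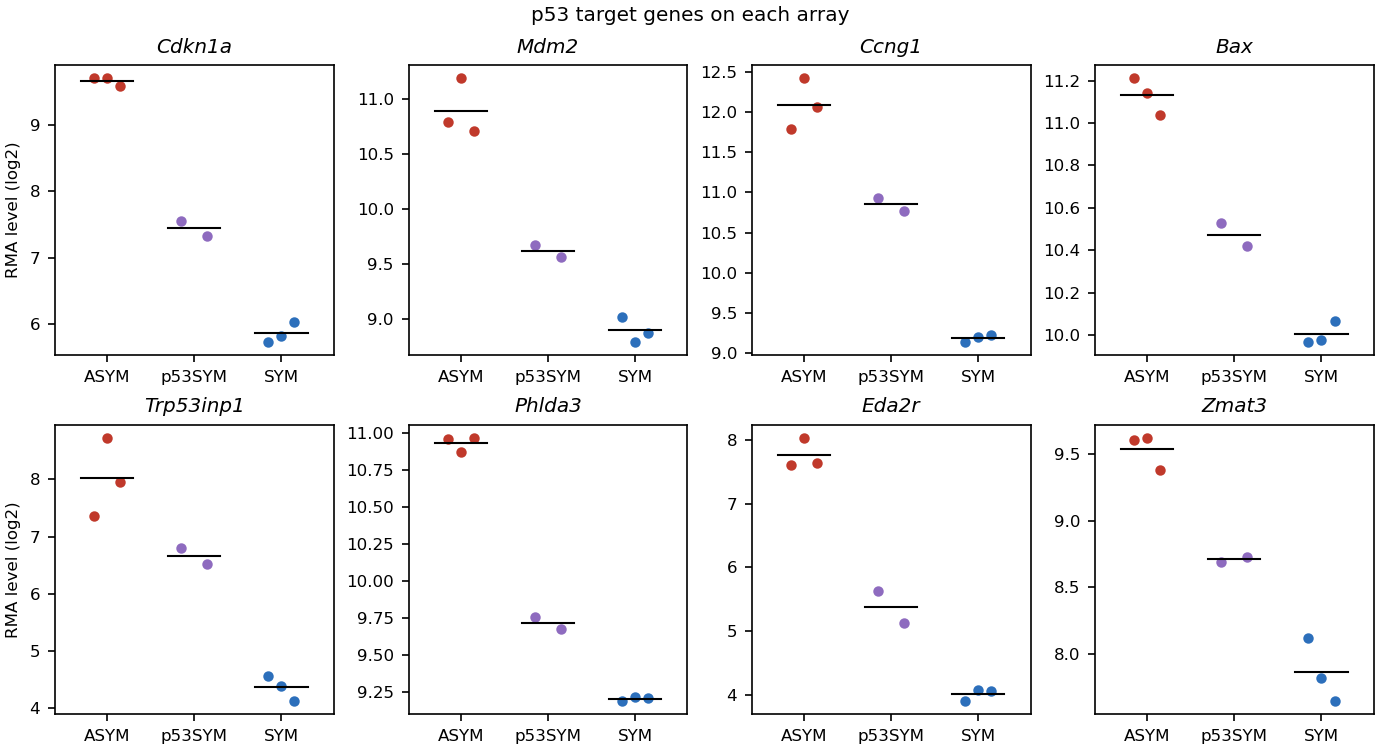
RMA level (log2, vertical axis) of 8 p53 target genes in the ASYM, p53SYM and SYM lines, with 1 point per array and a line at each mean. Cdkn1a lies between 9.59 and 9.70 in ASYM, at 7.33 and 7.55 in p53SYM and between 5.73 and 6.03 in SYM.

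Trp53 measured 5.68, 5.87 and 5.80 in ASYM, 5.60 and 5.69 in p53SYM and 5.21, 5.29 and 5.27 in SYM. It was higher in ASYM than in SYM by 0.53 (limma adjusted p = 0.0019) and in p53SYM than in SYM by 0.39 (limma adjusted p = 0.014). The latter call was lost without p53SYM replicate 2 (0.34, limma adjusted p = 0.11), and the rank product test called neither (pfp = 0.22 and 0.73). Whether its probes lie within the deleted part of the gene was not analysed here. Impdh2 was lower in ASYM than in SYM, with a difference of -0.34 (limma adjusted p = 0.011), and p53SYM, with 12.34 and 12.38, lay between them. The ASYM to SYM difference of Impdh2 was not called by the rank product test (pfp = 0.63). The probes of this row may or may not read the introduced cDNA, which was not analysed here. The zinc-responsive metallothioneins Mt1 and Mt2 did not pass in ASYM against SYM, with differences of 0.14 and -0.12. Mt2 was lower in p53SYM than in SYM, with a difference of -0.39 (limma adjusted p = 0.025). That call was lost without SYM replicate 2, without p53SYM replicate 2, on arrays quantile-normalized again, with the hybridization controls as a covariate and by the rank product test (limma adjusted p = 0.087, 0.22, 0.25 and 0.1, and pfp = 0.67).

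Among 10 fibroblast markers, 9 lay above the dim level, which is the 25th percentile of all row means (4.30). Vim, an intermediate filament protein, was the most abundant, with a mean of 13.89, whereas Thy1 lay under the dim level. The mean of the fibroblast list ran from 10.74 to 11.12 in ASYM and from 10.71 to 10.97 in SYM. In p53SYM it was 10.48 and 10.53, under every other array. Of 6 epithelial markers 3 lay under the dim level, Epcam and Cdh1 among them, but Krt19 had a mean of 9.78 and was higher in ASYM than in SYM by 0.82 (limma adjusted p = 0.0056). The mean of the epithelial list was 5.28, 5.39 and 5.41 in ASYM, 5.31 and 5.36 in p53SYM and 5.09, 5.24 and 5.34 in SYM. Of 5 endothelial markers 4, and of 5 blood cell markers 3, were under the dim level, with Kdr (6.15) and Cd3e (5.45) the most abundant. In ASYM against SYM, 2 fibroblast markers were higher and 1 lower, 1 epithelial marker was higher and 1 endothelial marker was lower. No blood cell marker passed by limma, at an unadjusted p under 0.05 (0 genes) or by the rank product test (0 genes). The rank product test also called 0 of the fibroblast, epithelial and endothelial markers there. With the hybridization controls as a covariate, 1 fibroblast and 1 epithelial marker were higher and 0 markers of these lists were lower. The endothelial list averaged 4.31 to 4.41 in ASYM, 4.37 to 4.52 in SYM and 4.60 and 4.65 in p53SYM, and the blood cell list 4.18 to 4.28, 4.22 to 4.44, and 4.50 and 4.51. Against p53SYM, ASYM had 5 fibroblast markers higher, with the collagens Col3a1 at 2.42 (limma adjusted p = 0.0013) and Col1a1 at 1.49 (limma adjusted p = 0.00091) the largest, and Thy1 lower (-0.67, limma adjusted p = 0.0016). Krt19 was higher there by 1.04 (limma adjusted p = 0.0029), the endothelial Kdr lower (-0.76, limma adjusted p = 0.00088), and 3 blood cell markers were lower. Relative to SYM, p53SYM had 3 fibroblast markers higher and 3 lower, Col3a1 at -2.68 (limma adjusted p = 0.00062) among the latter, 2 endothelial markers and 1 blood cell marker higher, and no epithelial marker that passed by limma or by the rank product test (2 were higher at an unadjusted p under 0.05). Without SYM replicate 3 the lower calls in ASYM against SYM, those of Thy1 and Kdr, were lost (-0.24 and -0.28, limma adjusted p = 0.15 and 0.12), and in p53SYM against SYM 1 fibroblast, 1 endothelial and 2 epithelial markers were then higher. Of the calls between p53SYM and SYM, the 3 higher fibroblast markers became 0 without either p53SYM array or by the rank product test, the 3 lower became 1 without p53SYM replicate 1, and the 2 endothelial markers became 1 and 0 without p53SYM replicate 1 and 2. The 3 lower blood cell markers in ASYM against p53SYM became 1 without either p53SYM array, and 0 with the covariate or by the rank product test. The part of these markers in the results on the member genes was not tested.

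Arrays that stand apart were looked for in the control probe sets. SYM replicate 3 averaged 10.63 on its 18S rRNA controls, against 5.58 to 6.46 on the other 7 arrays. The hybridization controls are bacterial and phage transcripts spiked into each sample. Their mean was 10.24 and 10.46 for p53SYM and 10.44 for SYM replicate 3. On the other 5 arrays they averaged 9.88 to 10.00. Values over rows were also less spread on the p53SYM arrays, with standard deviations of 2.29 and 2.25 against 2.32 to 2.40 elsewhere. The 3' minus 5' difference of the actin control probe sets, a measure of RNA and labelling quality, was 0.192, 0.141 and 0.156 in ASYM, 0.117, 0.135 and 0.110 in SYM and 0.0578 and 0.0695 in p53SYM, so the lines did not overlap. That of GAPDH was -0.109 on ASYM replicate 1 and -0.215 to -0.184 on the other arrays. The part of the actin and GAPDH values in the results was not tested, and the low actin values and narrow spread of the p53SYM arrays cannot be told apart from their line. The level of the hybridization controls, which SYM replicate 3 shares, was entered as a covariate in limma, and each array was left out in turn.

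**Figure D2:**
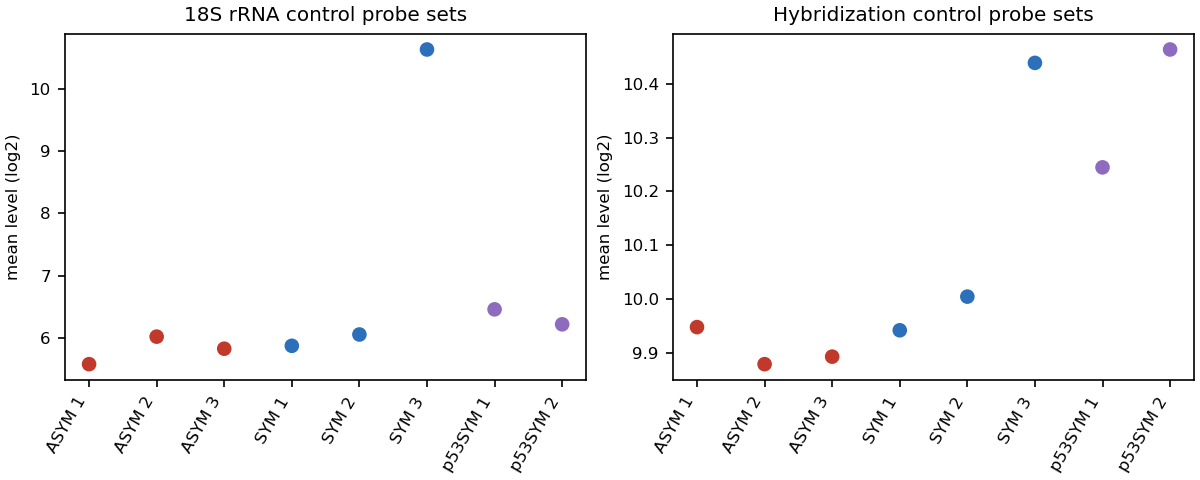
Mean level (log2, vertical axis) of the 18S rRNA control probe sets and of the hybridization control probe sets on each of the 8 arrays, with 1 point per array coloured by line. SYM replicate 3 stands at 10.63 for 18S, and for the hybridization controls it and both p53SYM arrays lie at 10.24 to 10.46.

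In the comparison of ASYM with SYM, the line with induced p53 and the p53-null line, 2 of the 8 genes passed the test. Both were higher in ASYM: Sod1 and Cat. By limma 0 were lower, also at an unadjusted p under 0.05 and by the rank product test, and 6 did not pass. Over all probe sets 10.9% were higher and 11% lower in this comparison, and with 8 genes the count of 2 is too small to set apart from that share. In ASYM against p53SYM, 3 of the 8 were higher, namely Sesn1, Sesn2 and Cat, and 0 were lower, also at an unadjusted p, where over all probe sets 15.6% were higher and 15.5% lower. In p53SYM against SYM, Sod1 was higher and Sesn1 lower, where over all probe sets 10.2% were higher and 15.1% lower. The median difference over the 8 genes was 0.12, 0.28 and -0.11 in these comparisons, beside -0.06, -0.06 and 0.04 over all probe sets. The comparisons share arrays and are not independent of each other.

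The rank product test, which the study's methods name, calls far fewer probe sets. It called 2.15% higher and 1.43% lower in ASYM against SYM, 1.62% and 0.444% in ASYM against p53SYM, and 0.644% and 1.67% in p53SYM against SYM, at a percentage of false positives (pfp) under 0.05. Of the 8 genes it called Sod1 (pfp = 0.029) and Cat (pfp = 0.045), both higher in ASYM than in SYM. It called none of them in the other 2 comparisons.

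**Figure D3:**
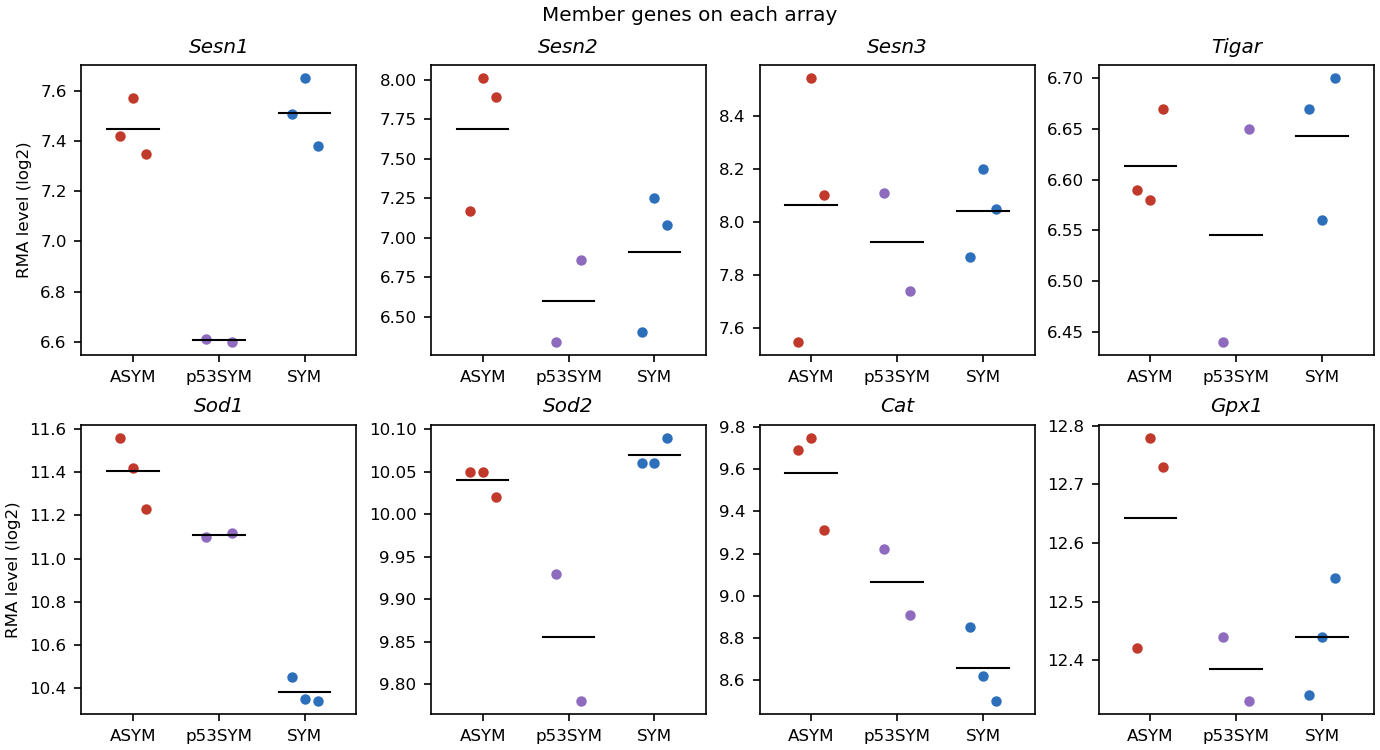
RMA level (log2, vertical axis) of the 8 genes in the ASYM, p53SYM and SYM lines, with 1 point per array and a line at each mean. All ASYM arrays lie above all SYM arrays for Sod1 and Cat, and both p53SYM arrays lie under all others for Sesn1.

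Promoter sequences are shown for the genes that passed a test between lines. They run over 300 bases around the annotated transcript start, 5′ to 3′, from RefSeq on the build GRCm38.p6, which held windows for all 8 genes. Capitals mark matches to 3 motifs searched on both strands, namely the p53 half-site, the antioxidant response element core TGACNNNGC and the forkhead core GTAAACA. Among 32851 windows of this length, 8.4% held the p53 half-site, 12.4% the antioxidant core and 3.6% the forkhead core.
Sesn1, first window (chr10:41810324-41810623, plus strand): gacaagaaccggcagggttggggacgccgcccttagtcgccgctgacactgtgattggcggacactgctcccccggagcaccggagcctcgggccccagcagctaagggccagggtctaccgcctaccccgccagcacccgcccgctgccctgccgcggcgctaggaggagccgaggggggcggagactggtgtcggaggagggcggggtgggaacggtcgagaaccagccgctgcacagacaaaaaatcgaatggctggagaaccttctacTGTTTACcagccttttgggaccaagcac
Sesn1, second window (chr10:41887189-41887488, plus strand): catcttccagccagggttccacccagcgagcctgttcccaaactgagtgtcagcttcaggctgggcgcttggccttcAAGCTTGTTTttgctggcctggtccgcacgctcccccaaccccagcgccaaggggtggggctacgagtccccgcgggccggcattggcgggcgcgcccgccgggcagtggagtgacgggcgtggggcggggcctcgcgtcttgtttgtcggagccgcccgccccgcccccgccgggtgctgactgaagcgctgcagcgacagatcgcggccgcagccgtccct
Sesn2 (chr4:132510407-132510706, minus strand): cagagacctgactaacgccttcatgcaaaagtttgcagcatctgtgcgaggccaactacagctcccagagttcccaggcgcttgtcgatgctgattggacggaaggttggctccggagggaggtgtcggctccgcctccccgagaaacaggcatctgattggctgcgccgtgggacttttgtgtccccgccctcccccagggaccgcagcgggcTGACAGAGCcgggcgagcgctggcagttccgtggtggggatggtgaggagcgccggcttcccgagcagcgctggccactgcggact
Sod1 (chr16:90220512-90220811, plus strand): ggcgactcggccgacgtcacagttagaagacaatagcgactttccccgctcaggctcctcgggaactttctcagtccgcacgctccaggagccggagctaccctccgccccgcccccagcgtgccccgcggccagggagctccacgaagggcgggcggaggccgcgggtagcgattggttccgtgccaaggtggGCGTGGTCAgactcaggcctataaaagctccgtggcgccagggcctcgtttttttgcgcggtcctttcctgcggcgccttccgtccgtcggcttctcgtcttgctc
Cat (chr2:103485104-103485403, minus strand): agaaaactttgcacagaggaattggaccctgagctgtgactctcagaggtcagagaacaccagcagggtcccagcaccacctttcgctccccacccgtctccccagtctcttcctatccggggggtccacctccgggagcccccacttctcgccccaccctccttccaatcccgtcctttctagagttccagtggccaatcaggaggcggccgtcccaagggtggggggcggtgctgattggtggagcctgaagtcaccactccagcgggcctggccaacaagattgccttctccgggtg
The first Sesn1 window holds a forkhead core and the second a p53 half-site. Sesn2 and Sod1 each hold 1 antioxidant core, on the strand shown for Sesn2 and on the opposite strand for Sod1. None of the 3 motifs is in the Cat window, nor in those of Sesn3, Tigar, Sod2 and Gpx1, which are not printed. Which Sesn1 window serves the measured transcript was not analysed here. A match describes letters in a window and was not tested for binding.

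Sesn1, a sestrin first found as a p53-induced gene, was the only member to pass between p53SYM and both other lines in the main limma fit. With a trend in the prior or without ASYM replicate 3, Sod1 passed in both as well. Sesn1 measured 7.42, 7.57 and 7.35 in ASYM, 7.51, 7.65 and 7.38 in SYM and 6.61 and 6.60 in p53SYM. Both p53SYM arrays lay under every other array, and the ASYM and SYM arrays overlapped. The mean was 7.45 ± 0.11 (SD, n = 3) in ASYM, 7.52 ± 0.14 (SD, n = 3) in SYM and 6.60 ± 0.0081 (SD, n = 2) in p53SYM. The difference was 0.85 for ASYM minus p53SYM (SE 0.11, limma adjusted p = 0.00059), a fold of 1.80, and -0.91 for p53SYM minus SYM (SE 0.11, limma adjusted p = 0.00033). Without SYM replicate 3 the second difference was -0.98 (limma adjusted p = 0.00067), and without p53SYM replicate 1 or 2 it was -0.92 or -0.91 (limma adjusted p = 0.0044 or 0.0056). The first was then 0.85 or 0.84 (limma adjusted p = 0.0065 or 0.0094). ASYM and SYM, the neighbours at the top of the order, did not differ beyond their spread, with a difference of -0.07 and a 95% interval from -0.29 to 0.15. The rank product test did not call either difference, with pfp of 0.15 and 0.097.

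Sesn2, the sestrin known for its induction by stress and for sensing leucine, varied widely between cultures of 1 line. Its levels were 7.17, 8.01 and 7.89 in ASYM, 6.40, 7.25 and 7.08 in SYM and 6.34 and 6.86 in p53SYM. ASYM replicate 1 lay under SYM replicate 2, so these lines overlapped, whereas all ASYM arrays lay above both p53SYM arrays. ASYM exceeded p53SYM by 1.09 (SE 0.29, limma adjusted p = 0.019), a fold of 2.13. This call was lost without ASYM replicate 2 (0.93, limma adjusted p = 0.06), without p53SYM replicate 1 (0.83, limma adjusted p = 0.13) and with the hybridization controls as a covariate (1.42, limma adjusted p = 0.1). In ASYM against SYM the difference of 0.78 missed the threshold (SE 0.26, 95% interval 0.20 to 1.36, limma adjusted p = 0.056). It passed without ASYM replicate 1 (1.04, limma adjusted p = 0.017) or SYM replicate 2 (0.95, limma adjusted p = 0.045), with a trend in the prior (limma adjusted p = 0.048) and among probe sets above the 25th percentile (limma adjusted p = 0.046). With the replicate numbers as a block it also passed (limma adjusted p = 0.00081), although these were not taken to pair the cultures. It did not pass without SYM replicate 3 (0.86, limma adjusted p = 0.085), SYM replicate 1 (0.52, limma adjusted p = 0.16), ASYM replicate 2 (0.62, limma adjusted p = 0.19) or ASYM replicate 3 (0.68, limma adjusted p = 0.14). The order was ASYM at 7.69 ± 0.45 (SD, n = 3), SYM at 6.91 ± 0.45 (SD, n = 3) and p53SYM at 6.60 ± 0.36 (SD, n = 2). The latter neighbours differed by -0.31, with a 95% interval from -0.95 to 0.33.

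Sesn3, a sestrin under forkhead control in other cells, gave 7.55, 8.54 and 8.10 in ASYM, 7.87, 8.20 and 8.05 in SYM and 8.11 and 7.74 in p53SYM. The lines overlapped throughout, and ASYM held both the lowest and the highest array. The means, 8.06, 8.04 and 7.92 in that order, did not differ beyond their spread. The 95% interval of ASYM minus SYM ran from -0.45 to 0.50, that of ASYM minus p53SYM from -0.39 to 0.67 and that of p53SYM minus SYM from -0.65 to 0.41.

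Tigar did not pass in any comparison. Its levels were 6.59, 6.58 and 6.67 in ASYM, 6.67, 6.56 and 6.70 in SYM and 6.44 and 6.65 in p53SYM. Arrays of the 3 lines overlapped, with means of 6.62, 6.64 and 6.55. The differences were -0.02 for ASYM minus SYM (95% interval -0.23 to 0.18), 0.07 for ASYM minus p53SYM (-0.16 to 0.30) and -0.09 for p53SYM minus SYM (-0.32 to 0.13).

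Sod1, the copper and zinc superoxide dismutase of the cytosol, had the smallest adjusted p of the 8 genes in ASYM against SYM. Its levels were 11.56, 11.42 and 11.23 in ASYM, 11.10 and 11.12 in p53SYM and 10.45, 10.35 and 10.34 in SYM. The 3 lines did not overlap, in that order. ASYM exceeded SYM by 1.02 (SE 0.099, 95% interval 0.80 to 1.24, limma adjusted p = 0.00011), a fold of 2.03, in 3 of 3 arrays. Without SYM replicate 3 the difference was 1.00 (limma adjusted p = 0.0008). p53SYM exceeded SYM by 0.73 (SE 0.11, limma adjusted p = 0.0011), a fold of 1.65, and by 0.70 without SYM replicate 3 (limma adjusted p = 0.0046). Without p53SYM replicate 1 or 2 this difference was 0.73 or 0.72 (limma adjusted p = 0.011 or 0.014). The rank product test did not call the latter difference (pfp = 0.24). ASYM and p53SYM, the upper neighbours, differed by 0.30 (95% interval 0.05 to 0.54), which missed the threshold (limma adjusted p = 0.064). This difference passed without ASYM replicate 3 (0.38, limma adjusted p = 0.031) and with a trend in the prior (limma adjusted p = 0.04). It also passed with the replicate numbers as a block (0.35, limma adjusted p = 0.03), although these were not taken to pair the cultures. The same difference did not pass on arrays quantile-normalized again (0.19, limma adjusted p = 0.24). Nor did it pass with the hybridization controls as a covariate (0.26, limma adjusted p = 0.43). Without ASYM replicate 1 or 2 it missed as well (0.22 or 0.29, limma adjusted p = 0.17 or 0.13). It was not called by the rank product test (pfp = 0.8).

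Sod2, the manganese enzyme of mitochondria, measured 10.05, 10.05 and 10.02 in ASYM, 10.06, 10.06 and 10.09 in SYM and 9.93 and 9.78 in p53SYM. Both p53SYM arrays were the lowest, and the ASYM and SYM arrays, did not overlap either, although they lay close together. No difference passed. That of ASYM minus SYM was -0.03 (95% interval -0.21 to 0.15), that of ASYM minus p53SYM 0.19 (-0.02 to 0.39) and that of p53SYM minus SYM -0.22 (-0.42 to -0.01, limma adjusted p = 0.11).

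Cat, the peroxisomal enzyme that splits hydrogen peroxide, followed the same order as Sod1. It measured 9.69, 9.75 and 9.31 in ASYM, 9.22 and 8.91 in p53SYM and 8.85, 8.62 and 8.50 in SYM. The lines did not overlap, although ASYM replicate 3 and p53SYM replicate 1 were close, as were p53SYM replicate 2 and SYM replicate 1. ASYM exceeded SYM by 0.93 (SE 0.14, 95% interval 0.61 to 1.25, limma adjusted p = 0.0014), a fold of 1.90, and by 0.85 without SYM replicate 3 (limma adjusted p = 0.0074). ASYM exceeded p53SYM by 0.52 (SE 0.16, limma adjusted p = 0.033), a fold of 1.43. This call was lost without ASYM replicate 1 (0.47, limma adjusted p = 0.089), ASYM replicate 2 (0.43, limma adjusted p = 0.097) or p53SYM replicate 2 (0.36, limma adjusted p = 0.24). It was also lost on arrays quantile-normalized again (0.41, limma adjusted p = 0.074), with the hybridization controls as a covariate (0.23, limma adjusted p = 0.6) and in the rank product test (pfp = 0.46). The lower neighbours, p53SYM and SYM, differed by 0.41 (95% interval 0.06 to 0.77, limma adjusted p = 0.086). That difference passed with the hybridization controls as a covariate (0.56, limma adjusted p = 0.049). It also passed on arrays quantile-normalized again (0.50, limma adjusted p = 0.037).

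Gpx1, the abundant selenium enzyme that reduces peroxides with glutathione, measured 12.42, 12.78 and 12.73 in ASYM, 12.34, 12.44 and 12.54 in SYM and 12.44 and 12.33 in p53SYM. The lines overlapped, with means of 12.65, 12.44 and 12.39. ASYM minus SYM was 0.21 (95% interval -0.04 to 0.45), ASYM minus p53SYM 0.26 (-0.02 to 0.54) and p53SYM minus SYM -0.05 (-0.33 to 0.22). The second of these passed without ASYM replicate 1 (0.37, limma adjusted p = 0.041). It did not pass without ASYM replicate 2 or 3 (0.19 or 0.22, limma adjusted p = 0.32 or 0.27). Nor did it pass on arrays quantile-normalized again (0.12, limma adjusted p = 0.53) or by the rank product test (pfp = 0.85).

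**Figure D4:**
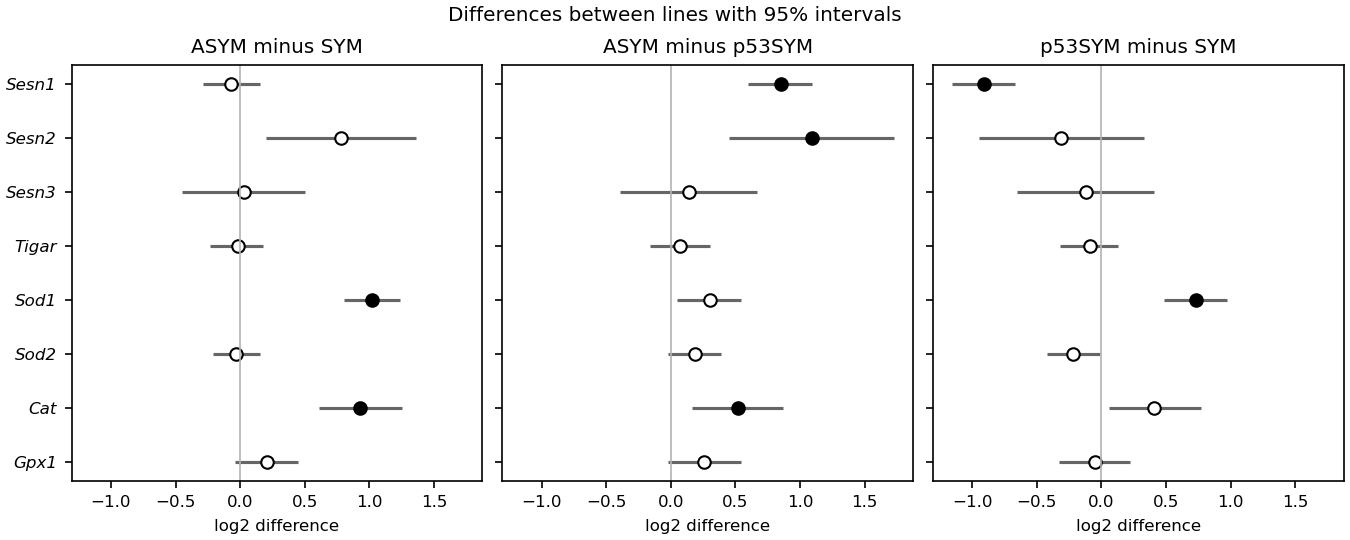
Difference between lines (log2, horizontal axis) for the 8 genes in each comparison, with 95% intervals from limma. Filled points have an adjusted p under 0.05, as Sod1 (1.02) and Cat (0.93) have for ASYM minus SYM.

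The genes whose profile over the 8 arrays was most like each member were taken by Pearson's r, as a description, since the arrays come from only 3 lines. For Sesn1 they were Crybg1 (r = 0.992), Mkx (0.988) and 5730409E04Rik (0.987). For Sesn2 they were Bet1l (0.964), Clip3 (0.964) and Ehd2 (0.961), and for Sesn3 Uqcrc2 (0.969), Nfs1 (0.962) and Ppm1k (0.956). Tigar was followed by Rag1 (0.958), BC030500 (0.929) and Gzmd (0.896), all under the dim level and with ranges of 0.17, 0.44 and 0.17 over the arrays. For Sod1 they were Alg1 (0.992), Cd109 (0.990) and Stk38l (0.989), and for Sod2 Rabepk (0.993) and Pabpc1 (0.990). For Cat they were Gabarapl1 (0.994), Cstb (0.992) and St7l (0.989), and for Gpx1 Gstz1 (0.990), Slc7a2 (0.963) and Kank1 (0.961).

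Other genes of these pathways were followed in fixed lists. All lists together, with the 8 members, the p53 targets, the transgenes and metallothioneins and the cell type markers included, held 172 different genes, of which 161 had a row. Rragb, Foxo6, Gpx4, Ftl1, Sepsecs, Nox1, Nox3, Noxa1, Duox2, Cd68 and Hbb-bt were not analysed here. Of 11 other p53 targets with redox or metabolic roles, 5 were higher in ASYM than in SYM and 0 lower by limma (1 at an unadjusted p under 0.05, 0 by the rank product test). Their median differences were 0.30, 0.34 and 0.13 for ASYM minus SYM, ASYM minus p53SYM and p53SYM minus SYM, to be read beside the -0.06, -0.06 and 0.04 over all probe sets, as are the medians of the other lists, given in the same order. Cpt1c, which encodes a carnitine palmitoyltransferase of the brain type, differed by 2.27 (limma adjusted p = 1.3e-06), Trp53inp1, a p53-induced stress protein, by 3.65 (limma adjusted p = 2.5e-05) and Ddit4, an inhibitor of mTORC1 also called REDD1, by 1.45 (limma adjusted p = 0.00015). Trp53inp1 also belongs to the p53 target genes used to check the labels, so the lists overlap by this gene. Against p53SYM, 4 were higher in ASYM and 0 lower, also at an unadjusted p. Between p53SYM and SYM 4 were higher and 2 lower in p53SYM. The 2 were Gls2, a glutaminase, at -0.86 (limma adjusted p = 0.0034) and Fdxr, ferredoxin reductase, at -0.51 (limma adjusted p = 0.034), which did not pass without SYM replicate 3 (-0.40, limma adjusted p = 0.086).

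Of 13 genes for the sestrin effectors GATOR2, GATOR1 and the Rag GTPases and for the arginine sensors Castor1 and Castor2, 0 were higher by limma (3 at an unadjusted p under 0.05, 0 by the rank product test) and 2 lower in ASYM than in SYM, with medians of -0.01, 0.05 and -0.01. The 2 were the GATOR2 subunit Seh1l, at -0.49 (limma adjusted p = 0.004), and the GATOR1 subunit Depdc5, at -0.28 (limma adjusted p = 0.035), which did not pass without SYM replicate 3 (-0.26, limma adjusted p = 0.098). Relative to SYM, p53SYM had 2 higher and 4 lower. Rragd, a Rag GTPase, was higher by 2.37 (limma adjusted p = 0.00025) and Seh1l by 0.65 (limma adjusted p = 0.0013), while the GATOR2 subunits Wdr59 and Sec13 were lower, at -1.08 (limma adjusted p = 0.00039) and -0.85 (limma adjusted p = 0.00051). Relative to p53SYM, ASYM had 4 higher and 3 lower. The extremes were again Wdr59 and Sec13, at 1.07 and 0.75, and Rragd and Seh1l, at -1.63 and -1.15.

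In the list of 16 AMPK, TSC and mTORC1 genes, 0 were higher by limma (2 at an unadjusted p under 0.05, 0 by the rank product test) and 3 lower in ASYM than in SYM, with medians of 0.01, 0.07 and -0.06. The 3 were Mlst8, a subunit of both mTOR complexes, Rptor, the mTORC1 scaffold, and the AMPK subunit Prkaa2, at -0.41, -0.32 and -0.31. Prkaa2 lies under the dim level, and Mlst8 and Rptor did not pass without SYM replicate 3 (-0.34 and -0.30, limma adjusted p = 0.11 and 0.096). Against p53SYM, 5 were higher in ASYM and 0 lower by limma (3 at an unadjusted p under 0.05, 0 by the rank product test). The largest were Prkaa1, an AMPK catalytic subunit, at 1.12 (limma adjusted p = 0.0068) and Tbc1d7, a TSC subunit, at 0.82 (limma adjusted p = 0.0015). Between p53SYM and SYM 5 were lower in p53SYM, Tbc1d7 at -0.80 and Prkaa1 at -0.74 among them, and 1 was higher, the AMPK subunit Prkag1, at 0.36, which did not pass without SYM replicate 3 (0.31, limma adjusted p = 0.069). Of 9 other known regulators of sestrins, 2 were higher in ASYM than in SYM, namely Nfe2l2, which encodes the oxidative stress factor NRF2, at 0.82 (limma adjusted p = 0.0013) and Foxo1, a forkhead factor, at 0.59 (limma adjusted p = 0.011). The same 2 were higher in p53SYM than in SYM, by 0.72 and 0.66. In ASYM against p53SYM 0 of the 9 passed by limma or by the rank product test, and 1 was lower at an unadjusted p under 0.05. The medians were 0.01, -0.03 and 0.08.

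For the substrate of TIGAR and the pentose phosphate pathway, 3 of 18 genes were higher and 3 lower in ASYM than in SYM, with medians of 0.04, 0.26 and -0.20. G6pdx, the first enzyme of the pentose phosphate pathway, was higher by 0.56 (limma adjusted p = 0.0038), Hk1, a hexokinase, by 0.44 (limma adjusted p = 0.012) and Pfkm, a phosphofructokinase, by 0.36 (limma adjusted p = 0.014). Pfkp, another phosphofructokinase, Rpia, the ribose-5-phosphate isomerase, and Pfkfb1, which makes and removes fructose-2,6-bisphosphate, were lower, at -0.90, -0.57 and -0.52. Pfkfb1 did not pass without SYM replicate 3 (-0.50, limma adjusted p = 0.056). Relative to p53SYM, 6 were higher in ASYM, with Hk2 at 0.65 and Taldo1 at 0.53 the largest, and 2 were lower, Fbp1 at -0.55 and Fbp2 at -0.44. Between p53SYM and SYM 5 were lower in p53SYM, with Hk2 and Rpia both at -0.83 the largest, and 1 was higher, Fbp1, at 0.57, a gene under the dim level.

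Of 13 other superoxide dismutase, glutathione peroxidase and peroxiredoxin genes, 3 were higher and 3 lower in ASYM than in SYM, with medians of 0.01, 0.00 and 0.16. The secreted peroxidase Gpx3 was higher by 1.08 (limma adjusted p = 0.00082), the endoplasmic reticulum peroxidase Gpx8 by 0.57 (limma adjusted p = 0.028) and Prdx2 by 0.48 (limma adjusted p = 0.02). Lower were Prdx4, at -0.45, the mitochondrial Prdx3, at -0.36, and Gpx7, at -0.28. Gpx8, Prdx2, Prdx3 and Gpx7 did not pass without SYM replicate 3 (0.50, 0.41, -0.28 and -0.29, limma adjusted p = 0.098, 0.075, 0.099 and 0.073). Relative to p53SYM, 3 were higher in ASYM, with Gpx3 at 1.04 and Prdx4 at 0.80 the largest, and 2 lower, the extracellular Sod3 at -0.83 and Gpx7 at -0.56. Relative to SYM, 3 were higher and 2 lower in p53SYM, with Sod3 at 0.70 and Gpx8 at 0.64 at one end and Prdx4 at -1.25 and Prdx3 at -0.70 at the other. The last Gpx8 difference did not pass without SYM replicate 3 (0.57, limma adjusted p = 0.066).

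In the thioredoxin and glutaredoxin list of 11 genes, 5 were higher and 1 lower in ASYM than in SYM, with medians of 0.39, 0.02 and -0.20. Srxn1, which repairs oxidized peroxiredoxins, was higher by 0.82 (limma adjusted p = 0.00078), the glutaredoxins Glrx2 and Glrx by 0.70 (limma adjusted p = 0.00068) and 0.69 (limma adjusted p = 0.0074), and Glrx5 was lower, at -0.27. Glrx5 did not pass without SYM replicate 3 (-0.26, limma adjusted p = 0.093). With p53SYM as the reference 5 were higher and 2 lower in ASYM, led by Glrx2 at 1.13 and the thioredoxin inhibitor Txnip at 0.73, and by Glrx at -0.71 and Txnrd2 at -0.31. Relative to SYM, 3 were higher and 3 lower in p53SYM, led by Glrx at 1.40 and Srxn1 at 1.04, and by Txnrd3 at -0.69 and Glrx5 at -0.55.

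Of 14 genes of glutathione synthesis and NRF2 targets, 4 were higher and 0 lower by limma (2 at an unadjusted p under 0.05, 0 by the rank product test) in ASYM than in SYM, with medians of 0.24, -0.02 and 0.17. The heme oxygenase Hmox1 measured 11.77, 11.66 and 10.98 in ASYM, 10.24 and 10.04 in p53SYM and 9.54, 9.11 and 8.98 in SYM, a difference of 2.25 between ASYM and SYM (limma adjusted p = 7.9e-05). Nfe2l2 and Srxn1 were the next, both at 0.82. Relative to p53SYM, 2 were higher in ASYM, Hmox1 at 1.33 and the glutathione synthetase gene Gss at 0.95, and 2 lower, the cystine carrier Slc7a11 at -1.13 and Ggt1 at -0.45. With the hybridization controls as a covariate, or by the rank product test, the 2 higher became 1 and the 2 lower became 0. Relative to SYM, 4 were higher in p53SYM, led by Slc7a11 at 1.5 and Srxn1 at 1.04. Of the 8 genes for the maturation of SOD1, GPX1 and catalase, with medians of 0.10, 0.26 and -0.21, 1 passed in ASYM against SYM. Pex13, a peroxisomal import protein, was higher in ASYM than in SYM by 0.61 (limma adjusted p = 0.015) and by 0.56 without SYM replicate 3 (limma adjusted p = 0.056). Ccs, the copper chaperone of SOD1, did not pass, at 0.16. In ASYM against p53SYM the peroxisomal import receptor gene Pex5, at 0.46, and Eefsec, at 0.40, were higher, and in p53SYM against SYM 3 were lower, Pstk at -0.34 and Eefsec at -0.33 the largest. Eefsec did not pass there without SYM replicate 3 (-0.32, limma adjusted p = 0.064).

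Of 8 NADPH oxidase genes, with medians of -0.04, -0.12 and 0.10, 1 was higher and 1 lower in ASYM than in SYM. Nox4, which makes hydrogen peroxide, was higher in ASYM than in SYM by 0.91 (limma adjusted p = 0.00035), and Cyba, which encodes its partner p22phox, was lower, at -1.37 (limma adjusted p = 1.3e-05). Against p53SYM, Nox4 was higher in ASYM by 0.47 and Cyba was lower, at -0.42. Between p53SYM and SYM the differences were 0.44 for Nox4 and -0.95 for Cyba. The latter Nox4 difference did not pass without SYM replicate 3 (0.38, limma adjusted p = 0.063) or by the rank product test (pfp = 0.66). The naming rule took 141 differences of other genes. On arrays quantile-normalized again 15 of them lost their call. Of the differences of other genes that the naming rule took and that had passed, 12, 22 and 19 lost their call without SYM replicate 1, 2 and 3, 15, 16 and 10 without ASYM replicate 1, 2 and 3, 19 and 27 without p53SYM replicate 1 and 2, 48 with the hybridization controls as a covariate and 95 by the rank product test.

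Counts of several lists moved with the arrays and the test. In the AMPK, TSC and mTORC1 list, the 5 genes higher in ASYM than in p53SYM became 3 without p53SYM replicate 2 and 0 with the hybridization controls as a covariate or by the rank product test. For the substrate of TIGAR and the pentose phosphate pathway, the 6 higher and 2 lower in that comparison became 2 and 1 without p53SYM replicate 2, and 0 and 0 with the covariate or by the rank product test. The 5 higher thioredoxin and glutaredoxin genes became 2 without p53SYM replicate 1, 3 without p53SYM replicate 2, 2 with the covariate and 0 by the rank product test. For GATOR and the Rag GTPases the 4 higher became 3, 2 and 0 without p53SYM replicate 2, with the covariate and by the rank product test, and for the other p53 targets the 4 higher became 3, 2 and 3. The 3 maturation genes lower in p53SYM than in SYM became 0, 1 and 0 under these settings. Relative to SYM, ASYM had with the covariate 0 lower AMPK, TSC and mTORC1 genes in place of 3, 1 higher gene of the TIGAR list in place of 3, and 1 higher and 1 lower gene of the superoxide dismutase and peroxidase list in place of 3 and 3. The rank product test called 0 of the 5 higher thioredoxin and glutaredoxin genes, 0 of the 2 regulators of sestrins, 0 of the 3 higher genes of the TIGAR list and 1 of the 4 higher genes of glutathione synthesis and NRF2 targets in that comparison.

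**Figure D5:**
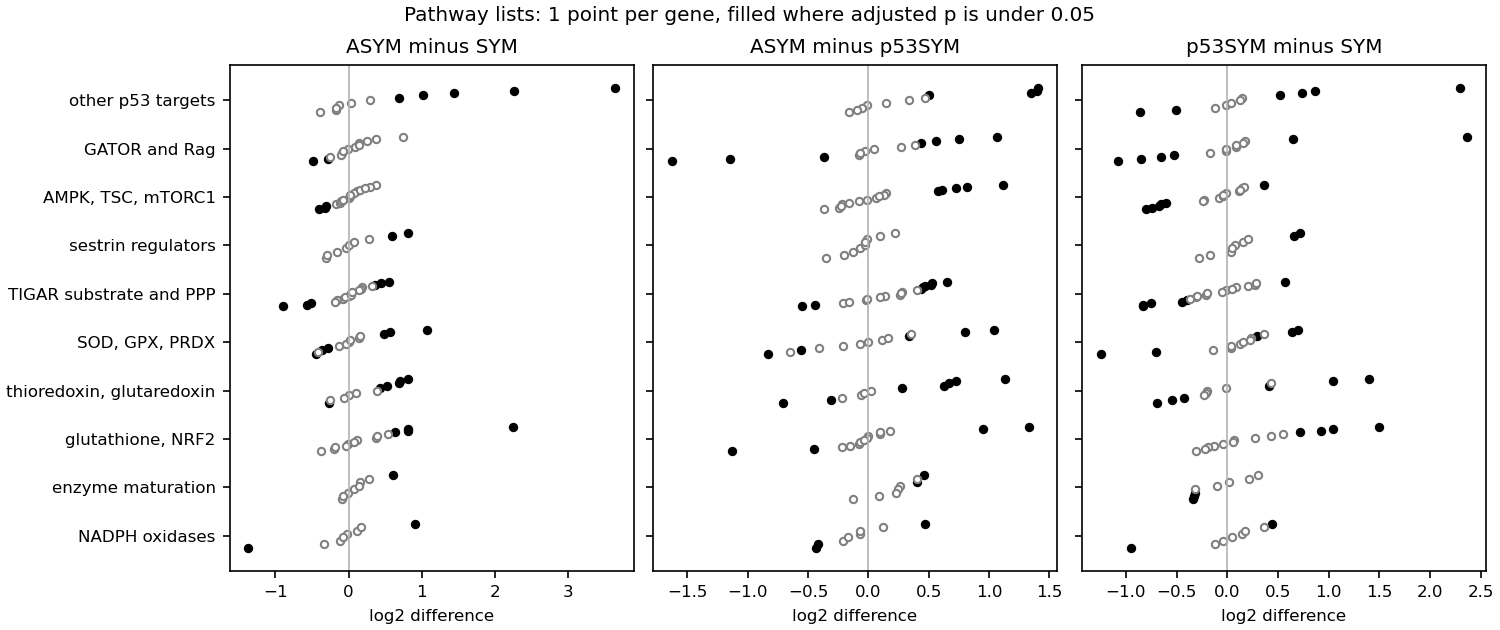
Difference between lines (log2, horizontal axis) for each gene of 10 pathway lists (rows) in each comparison, with 1 point per gene and filled points where the limma adjusted p is under 0.05. Trp53inp1 at 3.65, Cpt1c at 2.27 and Hmox1 at 2.25 are farthest to the right for ASYM minus SYM, and Cyba at -1.37 far to the left.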

How the data were processed

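Expression was measured on 8 Affymetrix mouse arrays, grouped by the line in the sample titles. The deposited log2 values are the authors' RMA levels, on probe sets rebuilt from RefSeq transcripts. No further normalization was applied. Of 22587 rows, 64 Affymetrix controls were left out. A RefSeq table of GRCm38.p6 named 18294 rows (81.2%), and the gene names come from it alone. Arrays have no sequencing depth.

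limma 3.58.1 in R 4.3.3 (lmFit and eBayes, default prior) was fitted to the 3 group means on all 8 arrays, with Benjamini-Hochberg adjustment over 22523 rows, a call at an adjusted p under 0.05 and 95% intervals. The rank product test was re-implemented with 100 permutations of the rows within each array and a pfp under 0.05. Both were tested on simulated data. Python 3.11.15, numpy 2.4.6, pandas 2.3.3 and matplotlib 3.10.9 were used. A gene with several profiles is given by that with the highest mean.

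The members and the gene lists were chosen with earlier results of these data known. Named genes were the members, the p53 targets, the transgenes and metallothioneins, and from each other list the called genes with the 3 largest rises and falls in ASYM against SYM and the 2 largest in the other comparisons. Ccs, Vim, Epcam and Cdh1, outside this rule, were chosen after their values were seen. Some results that the rules take are not reported here. The methods name the rank product test, which gives no interval for a gene, and limma was used in its place. Alternatives were the rank product test, limma on the compared groups only, a replicate block, a trend in the prior, a filter at the 25th percentile, control rows kept, distinct profiles once, quantile normalization again, median centring, the hybridization controls as a covariate, the profile with the lowest mean, and each array left out.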

Additional observations from a re-analysis of the deposited data

Results flagged for a closer look

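The 18S rRNA control rows, which were left out of the comparisons reported and kept only in the alternative with control probe sets, averaged 10.63 on SYM replicate 3, above the 5.58 to 6.46 of the other arrays. With the control probe sets kept, limma called 2453 probe sets higher and 2472 lower in ASYM than in SYM, beside 2464 and 2478 without them. Without SYM replicate 3 the calls numbered 1807 and 1843. Leaving out ASYM replicate 2 gave 1771 and 1722, and leaving out SYM replicate 2 gave 1947 and 1859.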

How the results depend on the processing

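Over the alternatives, member differences lost the call 13 times, gained it 11 times and changed sign 16 times, each of the 16 for a difference that had not passed, and otherwise kept direction and side of the threshold. In ASYM against SYM the 2 higher became 3 with the replicate block, a trend in the prior or the filter, and 2 to 3 with an array left out. In ASYM against p53SYM the 3 higher became 4 with the replicate block or a trend in the prior, 2 on arrays quantile-normalized again, 1 with the hybridization controls as a covariate and 0 by the rank product test, and ran from 1 to 4 with an array left out. In p53SYM against SYM the 1 higher became 2 on arrays quantile-normalized again or with the covariate, and both counts of 1 became 0 by the rank product test. Signs changed for Sesn1 in ASYM minus SYM without SYM replicate 2 (0.0001), for Sesn3 in ASYM minus SYM (-0.014 quantile-normalized again, -0.0515 with the covariate, -0.2115 without ASYM replicate 2, -0.0568 without SYM replicate 1), in ASYM minus p53SYM (-0.0271, -0.0149, -0.0953 without ASYM replicate 2, -0.0428 without p53SYM replicate 2) and in p53SYM minus SYM (0.0131 quantile-normalized again, 0.0696 without p53SYM replicate 2), for Tigar (0.0329 with the covariate and 0.003 without SYM replicate 3 in ASYM minus SYM, -0.0373 and 0.0125 without p53SYM replicate 1 in the others), for Gpx1 in p53SYM minus SYM (0.0691 quantile-normalized again) and for Mt1 (-0.0887 and 0.199 quantile-normalized again, 0.0443 in p53SYM minus SYM without p53SYM replicate 2). With an array left out, the values farthest from these that kept their sign were -0.1351 for Sesn1, 0.2826, 0.3988 and -0.3019 for Sesn3 and -0.066, 0.1754 and -0.2002 for Tigar, in the order of the comparisons above, and -0.2626 for Mt1 in p53SYM minus SYM. The cause of the changes was not tested. Same-numbered arrays of ASYM and SYM had deviations that correlated at 0.27, 0.029 and 0.381. Arrays of these lines with unlike numbers correlated at -0.408 to 0.117, under the same-numbered arrays 1 and 3 but not under 2. As replicate 2 did not stand out, the numbers were not taken to pair the cultures. Whether the cultures were prepared in pairs was not tested. With the replicate block, calls over all probe sets numbered 2731 higher and 2651 lower in ASYM against SYM, and Sesn2 in ASYM against SYM (0.78, limma adjusted p = 0.00081) and Sod1 in ASYM against p53SYM (0.35, limma adjusted p = 0.03) passed. The covariate left 1481 higher and 1485 lower probe sets in ASYM against SYM, 820 and 413 in ASYM against p53SYM (66.5% of calls higher against 50.1%) and 1650 and 2661 in p53SYM against SYM, beside 2464 and 2478, 3509 and 3500, and 2304 and 3411. The rank product test called 484 and 322, 365 and 100, and 145 and 377. Without p53SYM replicate 2 the last comparisons had 1742 and 1039, and 1183 and 1910. Without ASYM replicate 1, ASYM replicate 2 or p53SYM replicate 1 the lower calls in ASYM against p53SYM numbered 2293, 2249 and 2289. With a p53SYM array left out, its lone array is assumed to vary like the others.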
